A study of Mus musculus with 7 samples.

Results

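The BCL2 family decides whether a cell keeps or opens the outer membrane of its mitochondria, and 10 genes of this family are described here in LT-HSCs, the long-term blood stem cells, of aged mice. The genes were taken as a list of names: the survival members Mcl1, Bcl2 and Bcl2l1, the effectors Bax and Bak1, and the BH3-only members Bcl2l11, Bid, Bbc3, Pmaip1 and Bad. They are 10 of 53458 genes with a transcript in the tables, and all 10 were among the 20314 genes with enough reads to be tested. Gene expression was measured by RNA sequencing in 3 Srp72+/- mice and 4 wild-type mice (WT, labelled Srp72+/+), with 1 library per mouse. All were aged C57/BL6 mice, and the sources used here do not give the altered part of Srp72, the numeric ages or the number of sorted cells. The cells were sorted from marrow as Sca1+ cKit+ CD150+ cells without Ter119, B220, CD3, Mac1, Gr1, Flt3 and CD48. The comparison asks how the loss of 1 allele of Srp72, a subunit gene of the signal recognition particle, alters these cells.

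As background, the effectors BAX and BAK form pores in the outer mitochondrial membrane, which releases cytochrome c and starts the caspase cascade. The survival proteins hold the effectors and the BH3-only proteins in check by binding their BH3 helix in a groove, and the BH3-only proteins carry stress signals by filling that groove or by activating the effectors directly. Blood stem cells of the mouse are known to depend on MCL1, and cytokines such as thrombopoietin and stem cell factor sustain them in part through this family.

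The feature that all members share is the BH3 segment, and the stretch of coding sequence that holds it is shown for 9 members. A coding model of Bcl2l11 and an incomplete model of Bax, both described below, hold no match to its pattern. Each line gives 42 bases, 5′ to 3′ on the coding strand, from the GENCODE M21 transcripts (GRCm38), with the codon of the conserved leucine and the codons of the glycine (alanine in Bbc3, serine in Bad) and aspartate in capitals.
Mcl1: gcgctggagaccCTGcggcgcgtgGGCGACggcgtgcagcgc
Bcl2: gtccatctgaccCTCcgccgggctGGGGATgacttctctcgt
Bcl2l1: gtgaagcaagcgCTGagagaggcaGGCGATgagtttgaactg
Bax: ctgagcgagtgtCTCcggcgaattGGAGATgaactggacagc
Bak1: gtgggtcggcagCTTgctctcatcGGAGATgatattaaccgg
Bcl2l11: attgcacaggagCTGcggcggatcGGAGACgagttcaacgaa
Bid: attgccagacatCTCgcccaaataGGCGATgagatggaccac
Bbc3: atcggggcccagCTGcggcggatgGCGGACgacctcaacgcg
Bad: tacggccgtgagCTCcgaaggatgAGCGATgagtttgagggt

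The search pattern was a leucine codon, then arginine or alanine, then any residue, then isoleucine, valine, methionine or alanine, then glycine, alanine or serine, then aspartate, read in frame. It was written from knowledge of the family, so its match in every member is a description. Of 21748 protein-coding genes, 281 (1.292%) held it in their longest coding sequence. Each stretch lies within 1 exon. The segment of Bcl2l11 lies at chr2:128147138-128147179 on the plus strand, and that of Bax at chr7:45465994-45466035 on the minus strand.

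The libraries held between 18370936 and 35247472 estimated reads in Srp72+/- and between 18054322 and 21826533 in WT. Values per gene are given as CPM, reads scaled to library size after the TMM method, and the floor of 3 reads corresponds to 0.091 CPM in the deepest library and 0.192 CPM in WT 2. Srp72 itself measured 71.9, 45.7 and 109.8 CPM in Srp72+/- 1 to 3, against 99.6, 136.6, 103.0 and 88.4 CPM in WT 1 to 4, so the groups overlapped. Across all genes 0 of 20314 passed a false discovery rate (FDR) of 0.05 in the quasi-likelihood test of edgeR, and 365 (1.8%) had an unadjusted p below 0.05. DESeq2, which fitted 40992 genes without the filter on low counts, called 10 genes. Nothing in the labels says more about the mice than their genotype, strain and age class, so the p-values measure the spread between these libraries.

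The sort label was checked against marker genes, and WT 2 stood apart. The summed level of 9 HSC markers was between 1066 and 1759.8 CPM in Srp72+/- and between 1701 and 2213 CPM in WT 1, WT 3 and WT 4, but 146 CPM in WT 2, with none of the 9 at 0 in any library. Procr, the endothelial protein C receptor gene and an HSC marker, stood below the floor in WT 2 with 0.0639 CPM, and between 9.002 and 43.9 CPM in the other 6 libraries. The 8 neutrophil markers summed to 11999.8, 5081 and 1149 CPM in Srp72+/- 1 to 3, and to 119, 38801, 8520.0 and 2716 CPM in WT 1 to 4. The 7 erythroid markers summed to 5548 CPM in Srp72+/- 1 and 7356 CPM in WT 2, against 368 to 1359.6 CPM in the others. The 7 B cell markers summed to 4228 CPM in Srp72+/- 1 and 10272 CPM in WT 2, against 56.6 to 1296 CPM in the others, with Cd79a at 0 in Srp72+/- 3. The 5 monocyte markers ranged from 55.9 to 437 CPM in Srp72+/- and from 10.9 to 1086 CPM in WT, and the 6 T and NK cell markers from 27.7 to 86.6 CPM and from 18.8 to 188 CPM, with Cd3g, Trbc2, Gzma and Klrd1 at 0 in at least 1 library. The 5 megakaryocyte markers summed to 99.9, 169 and 705 CPM in Srp72+/- 1 to 3, and to 243, 22.7, 116 and 174 CPM in WT 1 to 4. In such bulk samples fewer cells of a type and less RNA per cell cannot be told apart.

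None of the 10 members passed the test for a difference between the genotypes. At an FDR of 0.05, 0 of 10 passed, beside a background of 0% over all genes tested (edgeR quasi-likelihood test, adjusted p = 0.9998 for each). At an unadjusted p below 0.05 there were also 0 of 10, beside 1.8% of all genes tested. DESeq2 called none of the members, but it gave Pmaip1 no p-value, so that gene could not be called there. The libraries of both genotypes overlapped for all 10 members, and the groups did not overlap for 3.57% of all genes. Of the fitted log2 fold changes (Srp72+/- over WT), 5 were positive and 5 negative, and their median was -0.06 beside -0.007 over all genes tested.

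**Figure D1:**
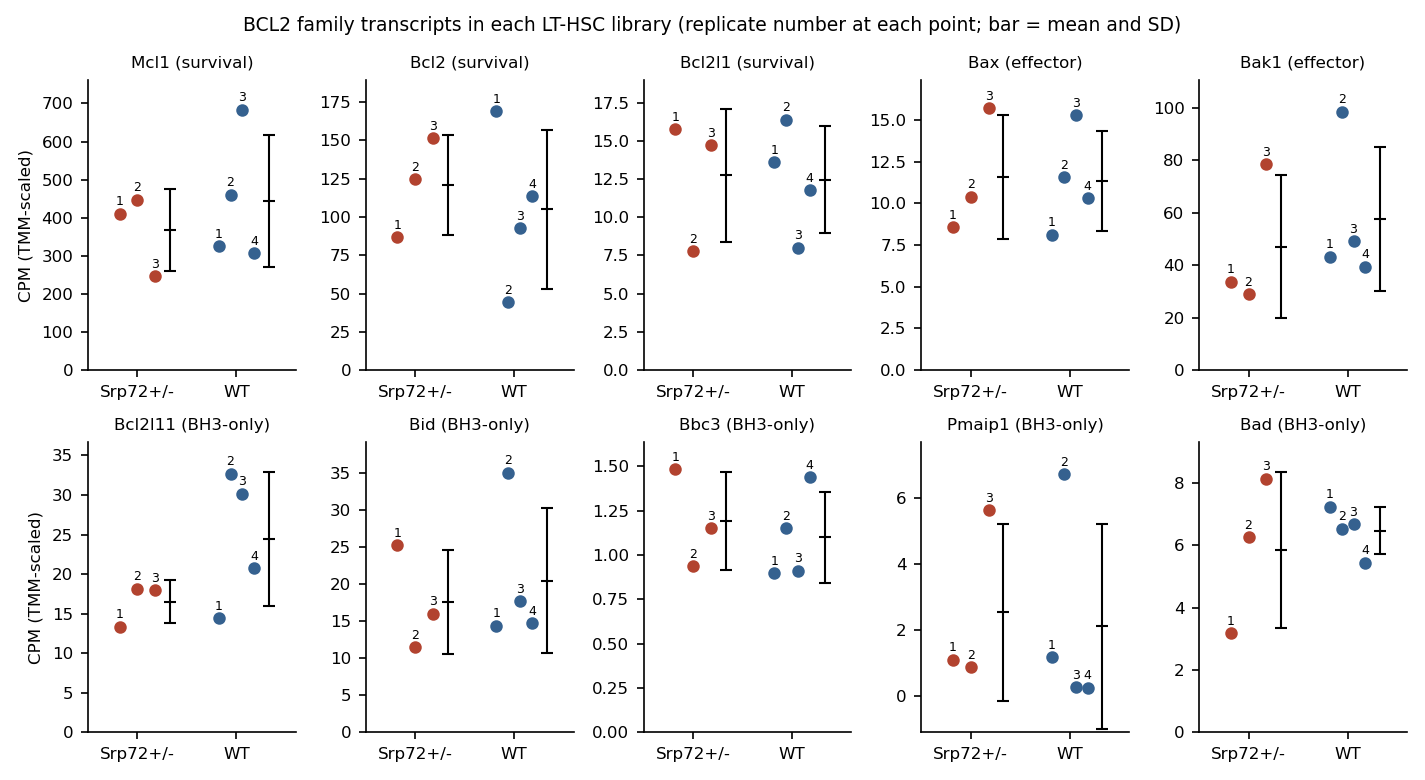
Level of each member in CPM (linear axis) in the 3 Srp72+/- libraries (red, left) and the 4 WT libraries (blue, right), with the replicate number at each point and the mean with its SD beside it. The groups overlap in every panel, WT 2 holds the highest value for Bcl2l1, Bcl2l11, Bak1, Bid and Pmaip1, and it holds the lowest value for Bcl2.

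Mcl1 (ENSMUSG00000038612, chr3:95658788-95663176, plus strand), which encodes a short-lived survival protein, was by far the most abundant member. It measured 411, 447 and 246 CPM in Srp72+/- 1 to 3, against 325, 460.4, 683 and 307 CPM in WT 1 to 4. The means were 368 ± 107 CPM (SD, n = 3) in Srp72+/- and 444 ± 174 CPM (SD, n = 4) in WT. The lowest of the 7 values was that of Srp72+/- 3 and the highest that of WT 3, and the other 5 lay between 307 and 460.4 CPM in both genotypes. The log2 fold change was -0.27 (SE 0.35, 95% confidence interval -1.07 to 0.53, edgeR unadjusted p = 0.461). Without WT 3 it was -0.01, and without Srp72+/- 3 it was -0.06.

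Bcl2 (ENSMUSG00000057329, chr1:106538178-106714274, minus strand), the founding survival gene of the family, measured 86.7, 125 and 152 CPM in Srp72+/- 1 to 3, against 169, 44.3, 92.6 and 114 CPM in WT 1 to 4. WT 2 held the lowest value, below every other library, and WT 1 the highest. The means were 121 ± 32.6 CPM (SD, n = 3) in Srp72+/- and 105 ± 51.7 CPM (SD, n = 4) in WT, with a log2 fold change of 0.21 (SE 0.42, 95% confidence interval -0.76 to 1.17, edgeR unadjusted p = 0.638). Without WT 2, which had the fewest HSC marker reads, it was -0.05, and without WT 1 it was 0.53. The part of the cell mixture in these values was not tested.

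Bcl2l1 (ENSMUSG00000007659, chr2:152780668-152831728, minus strand), which encodes BCL-XL, a survival protein of red cell precursors and platelets, was far lower. It measured 15.8, 7.76 and 14.7 CPM in Srp72+/- 1 to 3, against 13.6, 16.4, 8.01 and 11.8 CPM in WT 1 to 4. The lowest values of the genotypes, in Srp72+/- 2 and WT 3, were alike, and so were the highest, in Srp72+/- 1 and WT 2. The log2 fold change was 0.04 (SE 0.39, 95% confidence interval -0.85 to 0.92, edgeR unadjusted p = 0.929), and its sign changed when Srp72+/- 1 (-0.17), Srp72+/- 3 (-0.09), WT 3 (-0.15) or WT 4 (-0.02) was left out.

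The effector genes did not pass the test either, and Bak1 varied widely. Bax (ENSMUSG00000003873, chr7:45461697-45466898, minus strand) measured 8.58, 10.4 and 15.7 CPM in Srp72+/- 1 to 3, against 8.13, 11.6, 15.3 and 10.3 CPM in WT 1 to 4. Its means were 11.6 ± 3.70 CPM (SD, n = 3) in Srp72+/- and 11.3 ± 3.01 CPM (SD, n = 4) in WT, and the log2 fold change was 0.03 (95% confidence interval -0.81 to 0.87, edgeR unadjusted p = 0.936). The range of one genotype thus lay almost on that of the other, and the sign changed without Srp72+/- 3 (-0.26), WT 1 (-0.10) or WT 4 (-0.03). Bak1 (ENSMUSG00000057789, chr17:27019810-27029009, minus strand) measured 33.8, 29.0 and 78.5 CPM in Srp72+/- 1 to 3, against 43.3, 98.5, 49.3 and 39.5 CPM in WT 1 to 4. In each genotype 1 library, Srp72+/- 3 or WT 2, lay far above the rest. Its log2 fold change was -0.29 (SE 0.46, 95% confidence interval -1.33 to 0.75, edgeR unadjusted p = 0.542), and it was -0.88 without Srp72+/- 3 and 0.10 without WT 2. Beside these values, Srp72+/- 3 held the most megakaryocyte marker reads of the 7 libraries. WT 2 held the most neutrophil, erythroid, B cell, monocyte, and T and NK cell marker reads. The part of these cells in the result was not tested. Exons of Bak1 overlap exons of Ggnbp1 on the other strand, and without a stated strand setting reads of such pairs cannot be told apart.

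Among the BH3-only members, Bcl2l11 had the largest distance between the genotypes relative to its error. Bcl2l11 (ENSMUSG00000027381, chr2:128126038-128162547, plus strand) encodes BIM, which ends the life of blood cells that lose cytokine support. It measured 13.3, 18.2 and 17.95 CPM in Srp72+/- 1 to 3, against 14.4, 32.7, 30.2 and 20.7 CPM in WT 1 to 4. All 3 Srp72+/- values lay below those of WT 2, WT 3 and WT 4, and WT 1 lay within the Srp72+/- range. The means were 16.5 ± 2.72 CPM (SD, n = 3) in Srp72+/- and 24.5 ± 8.47 CPM (SD, n = 4) in WT. The log2 fold change of -0.57 (SE 0.35, 95% confidence interval -1.37 to 0.23) did not pass the test (edgeR unadjusted p = 0.139). It stayed negative when each library was left out in turn, between -0.75 and -0.40. The value of -0.40 was that without WT 2, which held the highest Bcl2l11 level and the fewest HSC marker reads. With WT 2 and Srp72+/- 1 both left out it was -0.27 (SE 0.37, edgeR unadjusted p = 0.493). The part of the cell mixture in this difference was not tested. With an offset for transcript length the log2 fold change was 0.14, which is taken up with the transcript models below.

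Bid (ENSMUSG00000004446, chr6:120891930-120916853, minus strand), which links death receptors and caspase 8 to mitochondria, measured 25.3, 11.5 and 16.0 CPM in Srp72+/- 1 to 3, against 14.4, 34.98, 17.7 and 14.7 CPM in WT 1 to 4. The highest values were those of WT 2 and Srp72+/- 1. These libraries also had the most neutrophil, erythroid, B cell and monocyte marker reads, and the part of these cells was not tested. The log2 fold change was -0.22 (SE 0.43, 95% confidence interval -1.20 to 0.77, edgeR unadjusted p = 0.627), and it was 0.17 without WT 2 and -0.59 without Srp72+/- 1. The 3′ end of Bid lies over that of Bcl2l13 on the other strand, and 629 bases of their transcripts are identical, so reads there are uncertain. Bad (ENSMUSG00000024959, chr19:6941861-6951899, plus strand), which growth factor signals silence by phosphorylation, measured 3.18, 6.25 and 8.13 CPM in Srp72+/- 1 to 3, against 7.23, 6.52, 6.67 and 5.44 CPM in WT 1 to 4. The WT values were close together, and the Srp72+/- values lay on both sides of them. Its log2 fold change was -0.14 (95% confidence interval -1.13 to 0.84, edgeR unadjusted p = 0.749) and 0.14 without Srp72+/- 1, and it shares 519 bases of transcript with Gpr137 on the other strand.

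The p53 target genes Bbc3 and Pmaip1 were the lowest members. Bbc3 (ENSMUSG00000002083, chr7:16308393-16318205, plus strand), which encodes PUMA, measured 1.48, 0.937 and 1.15 CPM in Srp72+/- 1 to 3, against 0.897, 1.15, 0.911 and 1.44 CPM in WT 1 to 4. These levels rest on 21 to 38 reads in Srp72+/- and 16 to 32 reads in WT. It was also the member with the smallest spread, with a highest value 1.65 times the lowest over all 7 libraries and a log2 fold change of 0.11 (95% confidence interval -1.06 to 1.28, edgeR unadjusted p = 0.831), which was -0.09 without Srp72+/- 1.

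Pmaip1 (ENSMUSG00000024521, chr18:66458533-66465560, plus strand), which encodes NOXA, a partner of MCL1, had the widest spread of the 10. It measured 1.11, 0.892 and 5.61 CPM in Srp72+/- 1 to 3, against 1.18, 6.71, 0.288 and 0.27 CPM in WT 1 to 4, from 21.1, 19.6 and 185.5 reads in Srp72+/- and 21.1, 104.6, 6.4 and 6.3 reads in WT. In each genotype 1 library again stood far above the rest, Srp72+/- 3 and WT 2, the same libraries as for Bak1. The log2 fold change was 0.28 (SE 1.21, 95% confidence interval -2.48 to 3.05, edgeR unadjusted p = 0.822). It was 2.15 without WT 2, where the unadjusted p was 0.0517, and -1.07 without Srp72+/- 3, and it was -0.13 without WT 3 and without WT 4. With WT 2 and Srp72+/- 1 both left out it was 2.50, at an unadjusted p = 0.0398 and an adjusted p = 0.9999 (edgeR). The direction of Pmaip1 therefore rested on single libraries.

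**Figure D2:**
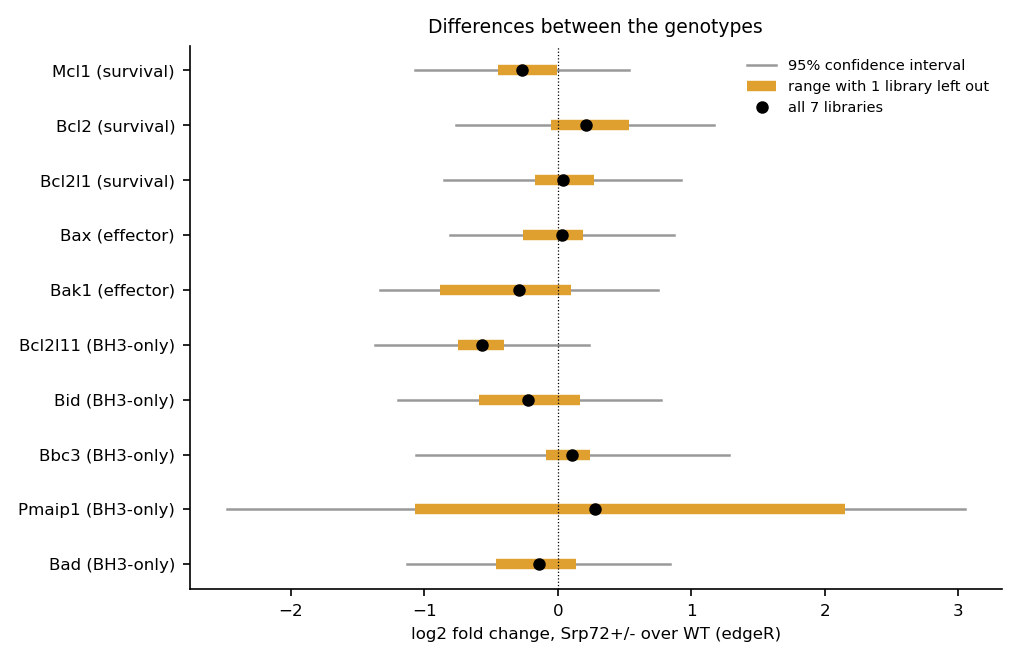
Log2 fold change of each member, Srp72+/- over WT (horizontal axis), from the fit of all 20314 genes. Points give the value with 7 libraries, grey lines its 95% confidence interval, and orange bars the range when each library is left out in turn. Every confidence interval includes 0, the orange bars of Mcl1 and Bcl2l11 stay below 0, and that of Pmaip1 runs from -1.07 to 2.15.

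Across the family, WT 2 held the highest value of the 7 libraries for 5 members and the lowest for 1, while each other library was highest for 2 members at most. The ratio of the highest to the lowest library lay between 1.65 (Bbc3) and 3.82 (Bcl2) for 9 members and was 24.9 for Pmaip1. Within Srp72+/- it was between 1.36 (Bcl2l11) and 6.29 (Pmaip1), and within WT between 1.33 (Bad) and 24.9 (Pmaip1).

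Levels of different genes were compared as CPM per kilobase of the annotated principal transcript. On this scale Mcl1 had 108 ± 31.3 in Srp72+/- (SD, n = 3) and 129.9 ± 50.8 in WT (SD, n = 4), above Bak1 in 7 of 7 libraries. Bak1 followed with 19.7 ± 11.4 in Srp72+/- and 24.1 ± 11.5 in WT, Bcl2 with 16.8 ± 4.53 in Srp72+/- and 14.6 ± 7.19 in WT, and Bax with 13.3 ± 4.27 in Srp72+/- and 13.1 ± 3.47 in WT. These 3 are neighbours whose order changed between libraries, as each stood above the next in 5 of 7. Bid had 8.04 ± 3.20 CPM per kilobase in Srp72+/- and 9.35 ± 4.47 in WT and was above Bcl2l1 in 7 of 7 libraries. Bcl2l1, Bad and Bcl2l11 had means between 3.27 and 4.97 in Srp72+/- and between 4.46 and 4.86 in WT, and Bad stood above Bcl2l11 in 3 of 7 libraries. The place of Bad depends on the length used, since its principal model of 1451 bases had reads in 2 of 7 libraries. Per kilobase of its most read model, of 990 bases, Bad had 5.91 ± 2.52 in Srp72+/- (SD, n = 3) and 6.53 ± 0.756 in WT (SD, n = 4). It then stood above Bcl2l11 in 7 of 7 libraries and above Bcl2l1 in 5 of 7, and on the TPM scale above Bcl2l11 in 6 of 7. Bcl2l11 was above Pmaip1 in 7 of 7. Pmaip1 and Bbc3 closed the order at 0.959 ± 1.01 and 0.656 ± 0.151 in Srp72+/- and 0.798 ± 1.17 and 0.606 ± 0.140 in WT, and Pmaip1 stood above Bbc3 in 2 of 7 libraries.

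**Figure D3:**
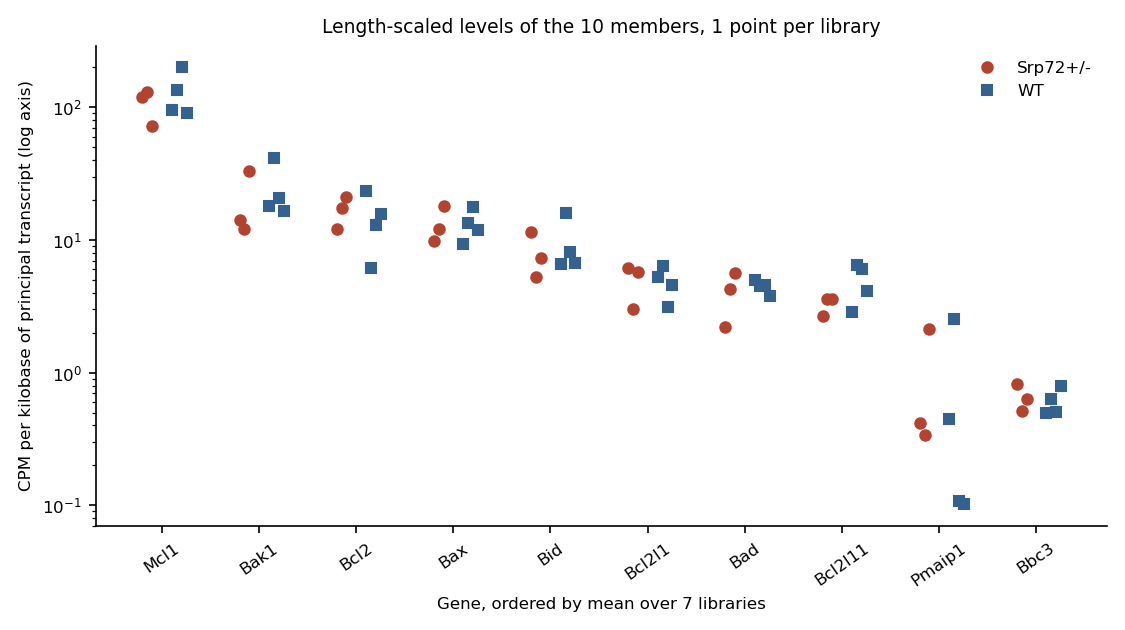
Length-scaled level of each member (CPM per kilobase of the principal transcript, log axis) in the 3 Srp72+/- libraries (red circles, left) and the 4 WT libraries (blue squares, right), ordered by the mean over 7 libraries. Mcl1 stands above all others in every library, and Pmaip1 spreads over more than a decade of the axis.

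BIM is made in forms that differ by splicing, and the forms differ in potency in cell assays. In the annotation BimEL, BimL and BimS part after the same base on the plus strand of chromosome 2. The bases on either side of that point are shown, with the 15 bases after the junction in capitals. The last line gives the junction that leads a model of 91 codons away from the exon that encodes BH3.
BimEL: agacagaaccgcaagGTAATCCCGACGGCG
BimL: agacagaaccgcaagACAGGAGCCCGGCAC
BimS: agacagaaccgcaagCTTCCATACGACAGT
Form without BH3: atctcagtgcaatggATCAGTTGGAGAATC

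BimEL reads on from base 128128756 to 128128757, BimL joins 128128756 to 128128925, and BimS joins it to 128147085 (GRCm38). Their coding sequences hold 196, 140 and 110 codons. The form without BH3 joins 128129014 to 128129637, has 91 codons and holds no match to the BH3 pattern, while the 3 named forms hold 1 each.

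The BimEL model held most of the Bcl2l11 reads in every library. Its share of the estimated reads was 78.8%, 81.0% and 95.6% in Srp72+/- 1 to 3, against 80.9%, 88.0%, 89.5% and 94.0% in WT 1 to 4, with means of 85.1% ± 9.16 (SD, n = 3) in Srp72+/- and 88.1% ± 5.40 (SD, n = 4) in WT. The ranges of the genotypes lay over each other (two-sided exact permutation test over 35 splits, p = 0.571, where the smallest possible p is 0.0286). The BimL model and both BimS models were listed at 0 reads in all 7 libraries. There were 252 to 592 Bcl2l11 reads per library in Srp72+/- and 257 to 629 in WT. If every read told the forms apart, 0 reads would allow shares up to 0.507% to 1.19% in Srp72+/- and 0.477% to 1.17% in WT. These limits cover counting error only. Reads outside the junctions fit several forms and were divided by estimation, so the real limits are wider. The form without BH3 held 29.0, 55.0 and 1.3 reads in Srp72+/- 1 to 3, against 34.3, 57.4, 48.9 and 26.8 reads in WT 1 to 4, so the deepest library, Srp72+/- 3, held the fewest.

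On the TPM scale the picture of Bcl2l11 changed. TPM divides reads by the effective length of each transcript, and on this scale the share of BimEL was 22.5%, 53.6% and 59.6% in Srp72+/- 1 to 3, against 59.0%, 76.2%, 66.0% and 82.3% in WT 1 to 4. The means were 45.2% ± 19.9 (SD, n = 3) in Srp72+/- and 70.9% ± 10.4 (SD, n = 4) in WT, a difference of -25.6 percentage points that did not pass the test (two-sided exact permutation test, p = 0.0857). A non-coding model of 391 bases has an effective length of 142 bases, beside 4673 to 4796 for BimEL. It held 18, 2.6 and 8.1 reads in Srp72+/- 1 to 3, against 0, 0, 4 and 1 reads in WT 1 to 4. These few reads made 67.6%, 14.3% and 28.8% of the Bcl2l11 TPM in Srp72+/- 1 to 3, against 0%, 0%, 15.6% and 6.32% in WT 1 to 4. Among protein-coding models alone the TPM share of BimEL was 82.3% ± 14.96 (SD, n = 3) in Srp72+/- and 80.6% ± 6.43 (SD, n = 4) in WT (two-sided exact permutation test, p = 0.886). The whole gene had 4.09, 2.88 and 1.92 TPM in Srp72+/- 1 to 3, against 1.55, 1.96, 3.69 and 1.85 TPM in WT 1 to 4, so the order of the genotype means was the reverse of that in CPM.

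**Figure D4:**
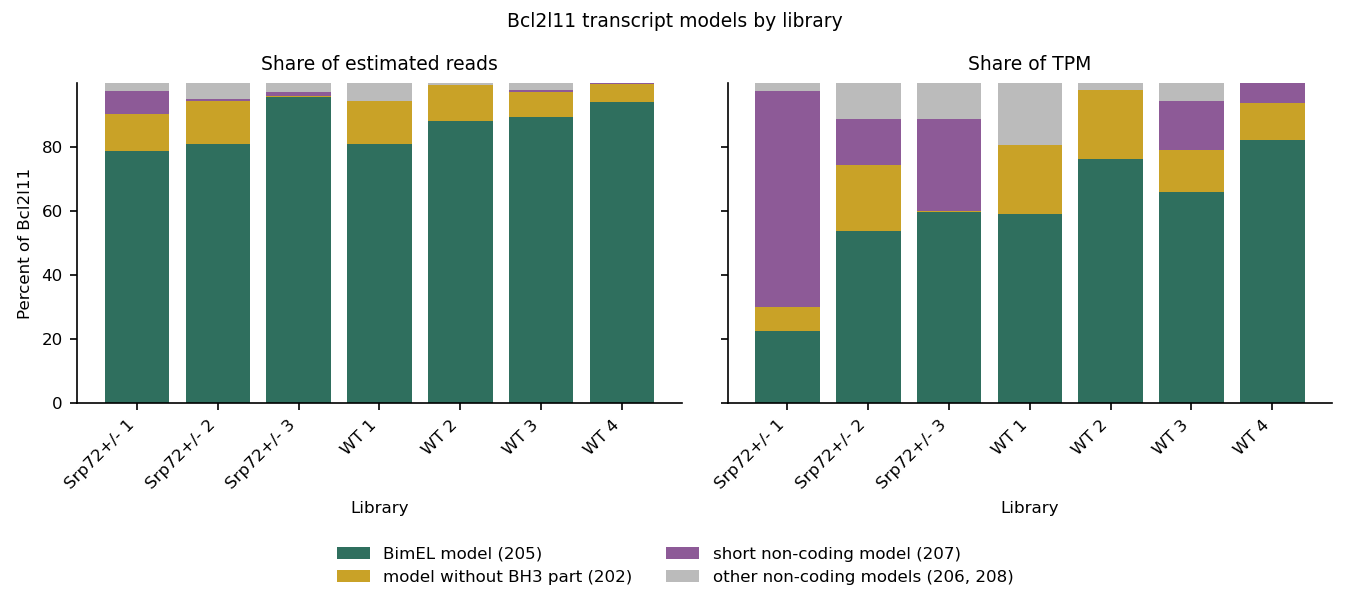
Share of each Bcl2l11 transcript model (percent, stacked to 100) in the estimated reads (left) and in TPM (right) for the 3 Srp72+/- and 4 WT libraries. BimEL (green) holds 78.8% to 95.6% of the reads in all libraries, while the short non-coding model (purple) takes up to 67.6% of the TPM from 18 reads at most.

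Bax showed the same property of short models. An incomplete model of 222 bases has an effective length of 13 bases and no match to the BH3 pattern. It held 14.1, 8.8 and 41.8 reads in Srp72+/- 1 to 3, against 12.7, 11.9, 31.3 and 9.5 reads in WT 1 to 4. These reads were 6.86% ± 2.67 of the gene in Srp72+/- (SD, n = 3) and 7.33% ± 2.52 in WT (SD, n = 4). They made 66.7% ± 10.7 of its TPM in Srp72+/- and 68.6% ± 7.49 in WT. The full-length model of 192 codons held 45.6% ± 9.02 of the reads in Srp72+/- and 53.7% ± 11.98 in WT, and a retained-intron model held 31.6% ± 4.26 and 23.3% ± 8.58. Bax therefore had 31.7, 28.0 and 44.2 TPM in Srp72+/- 1 to 3, against 29.5, 20.7, 63.2 and 20.2 TPM in WT 1 to 4, mostly from that short model.

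The other members were read from 1 to 3 main models. The Bcl2 model of 236 codons, which includes the membrane anchor, held 92.8%, 82.5% and 90.6% of the Bcl2 reads in Srp72+/- 1 to 3, against 96.1%, 91.5%, 68.9% and 93.3% in WT 1 to 4, and the rest belonged to a single-exon model of 199 codons. WT 3 thus stood apart with 31.1% for the single-exon model. The leading Bcl2l1 model, which encodes BCL-XL with 233 codons in 2417 bases, held 71.5%, 59.1% and 82.9% of the Bcl2l1 reads in Srp72+/- 1 to 3, against 88.2%, 86.1%, 75.4% and 69.3% in WT 1 to 4, and an incomplete model of 686 bases held 7.86% ± 7.31 in Srp72+/- (SD, n = 3) and 10.95% ± 10.7 in WT (SD, n = 4). For Bak1 the full-length model of 209 codons held 63.6% ± 4.51 of the reads in Srp72+/- and 57.9% ± 7.88 in WT, and a model annotated as a target of nonsense-mediated decay held 29.3% ± 7.47 in Srp72+/- and 38.8% ± 5.93 in WT (SD, n = 3 and n = 4). A model of 146 codons held 4.42%, 11.4% and 5.50% of the Bak1 reads in Srp72+/- 1 to 3. In WT 1 to 4 its share was 0%, 3.99%, 3.93% and 5.54%. Its length of 426 bases in the deposited data differs from the 902 bases in GENCODE M21.

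For Bid, the coding model held 86.3%, 57.5% and 38.5% of the reads in Srp72+/- 1 to 3, against 59.7%, 64.9%, 76.6% and 68.0% in WT 1 to 4, and a decay target with the same codons held 6.73%, 42.5% and 60.4% in Srp72+/- 1 to 3, against 38.9%, 34.2%, 16.0% and 30.9% in WT 1 to 4. The Srp72+/- libraries thus spread on both sides of WT. The Bad model of 162 codons held 63.5% ± 5.39 of the Bad reads in Srp72+/- and 82.4% ± 25.0 in WT, with 100% in WT 3 and WT 4, and incomplete models of 62 and 160 codons had 20.2% ± 2.33 and 8.48% ± 6.17 in Srp72+/- and 7.13% ± 8.47 and 6.03% ± 9.98 in WT (SD, n = 3 and n = 4). The Bbc3 model of 193 codons held 83.9% ± 17.9 of the few Bbc3 reads in Srp72+/- and 48.6% ± 38.9 in WT, beside a retained-intron model, which held 19 of 19 reads in WT 3. Mcl1 and Pmaip1 were each read from a single model. Reads also remain uncertain where exons overlap another gene, as for Bcl2 with D630008O14Rik and Bax with Gm45808, and Mcl1 has a stretch of 245 bases at 91.8% identity in Gm20432.

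The balance between survival and pro-apoptotic transcripts did not separate the genotypes on any scale used. As the log2 ratio of the summed TPM of Mcl1, Bcl2 and Bcl2l1 to the summed TPM of the other 7 members it was 0.17, 0.63 and -1.06 in Srp72+/- 1 to 3, against 0.08, -0.30, 0.18 and 0.23 in WT 1 to 4. Srp72+/- 3 and WT 2 had the lowest values and Srp72+/- 2 the highest. The means were -0.09 ± 0.87 (SD, n = 3) in Srp72+/- and 0.05 ± 0.24 (SD, n = 4) in WT, and as a sum over chosen genes this ratio was given no test. Bax made 49.6% to 59.5% of the pro-apoptotic TPM in Srp72+/- and 41.6% to 67.5% in WT, mostly through its 222-base model.

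On CPM per kilobase of the principal transcript, where that model carries no extra weight, survival transcripts exceeded pro-apoptotic ones in all 7 libraries, by 3.32, 3.96 and 1.41 times in Srp72+/- 1 to 3 and by 2.89, 1.74, 3.75 and 2.51 times in WT 1 to 4. Srp72+/- 3 and WT 2 were again the lowest. Mcl1 alone made 72.9% to 86.9% of the survival sum in Srp72+/- and 76.8% to 92.6% in WT. Without Mcl1 the TPM ratio was negative in all 7 libraries, with log2 means of -2.41 ± 0.46 (SD, n = 3) in Srp72+/- and -2.61 ± 0.84 (SD, n = 4) in WT. On CPM per kilobase it was also negative in all 7 but nearer 0, with log2 means of -1.16 ± 0.24 (SD, n = 3) in Srp72+/- and -1.57 ± 0.95 (SD, n = 4) in WT.

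**Figure D5:**
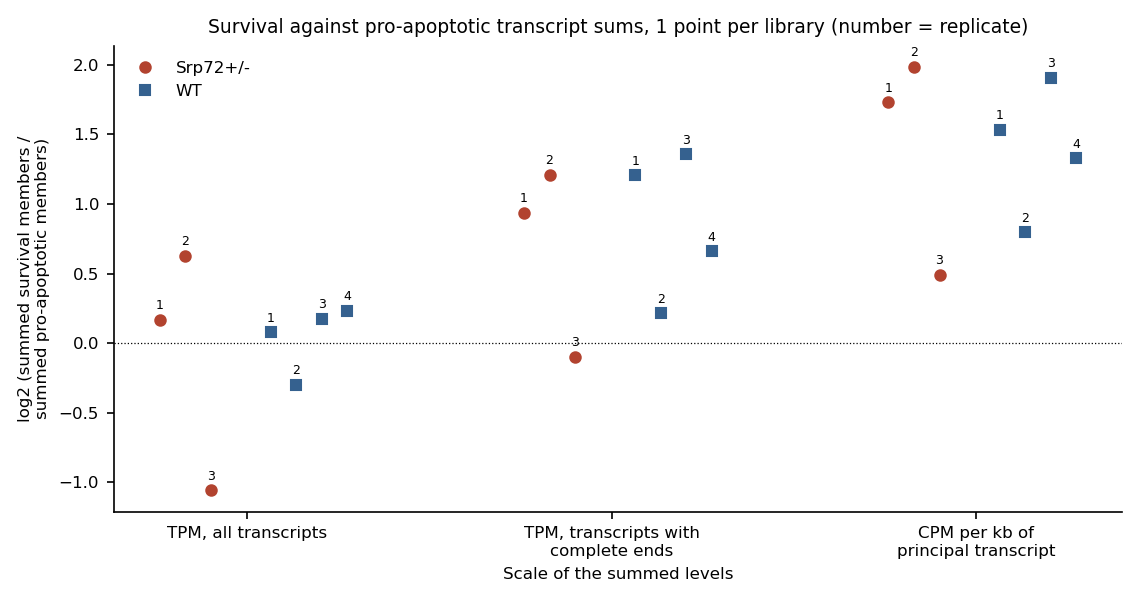
Log2 ratio of summed survival to summed pro-apoptotic transcripts (vertical axis) on 3 scales, for the 3 Srp72+/- libraries (red circles, left) and the 4 WT libraries (blue squares, right), with replicate numbers. The groups overlap on each scale, Srp72+/- 3 is the lowest library on all 3, and with CPM per kilobase all values lie above 0.

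Among the other genes of the family, 9 of 15 had enough reads to be tested, and 0 passed in either direction. Their fitted differences were positive in 2 and negative in 7, with a median of -0.18 beside -0.007 over all genes, and 0 of 9 had an unadjusted p below 0.05, beside 1.8% of all genes tested. The survival gene Bcl2l2, which encodes BCL-W, measured 13.2, 18.3 and 10.1 CPM in Srp72+/- 1 to 3, against 9.86, 10.6, 15.2 and 26.4 CPM in WT 1 to 4. The A1 survival genes Bcl2a1a, Bcl2a1b and Bcl2a1d, close copies of each other among which reads may be split, did not pass the filter on low counts and were not tested. Bcl2a1a was at most 0.134 CPM in Srp72+/- and 0.315 CPM in WT, and Bcl2a1b at most 0.159 CPM in Srp72+/- and 0.703 CPM in WT. Bcl2a1d measured 2.01, 0 and 0.152 CPM in Srp72+/- 1 to 3, against 0.224, 0.767, 0.0959 and 0 CPM in WT 1 to 4, so it stood well above the floor in Srp72+/- 1 and WT 2. Bnip3l, a mitophagy receptor gene that also acts in red cell maturation, measured 112, 99.4 and 112 CPM in Srp72+/- 1 to 3, against 113, 135, 124 and 116 CPM in WT 1 to 4. Its groups did not overlap, which held for 1 of 9 genes of this list and 3.57% of all genes, and its log2 fold change of -0.18 did not pass (95% confidence interval -0.60 to 0.24, edgeR unadjusted p = 0.356). Bcl2l12 and Bok, an effector relative at 1.01 ± 0.887 CPM in Srp72+/- and 0.278 ± 0.251 CPM in WT (SD, n = 3 and n = 4), had log2 fold changes of -0.46 and 1.83 with standard errors of 0.38 and 1.07.

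Downstream of the mitochondria, all 18 genes of the apoptosome and caspase list were tested and 0 passed, with 7 positive and 11 negative fitted values and a median of -0.08. At an unadjusted p below 0.05, 0 were higher and 1 was lower in Srp72+/-, beside 1.01% and 0.788% of all genes. That gene was Casp9, the initiator caspase of the apoptosome, at 9.80, 9.77 and 9.22 CPM in Srp72+/- 1 to 3, against 12.9, 20.1, 12.7 and 17.2 CPM in WT 1 to 4. Every Srp72+/- library lay below every WT library. The log2 fold change was -0.71 (SE 0.31), for which edgeR gave an adjusted p = 0.9998 and an unadjusted p = 0.0485. Diablo, whose product releases caspases from their inhibitors, did not overlap in the other direction, with 35.2, 30.1 and 38.8 CPM in Srp72+/- 1 to 3, against 26.7, 22.2, 29.3 and 23.7 CPM in WT 1 to 4, and a log2 fold change of 0.44 (edgeR unadjusted p = 0.0897). Thus 2 of 18 genes had groups that did not overlap, beside 3.57% of all genes. Aifm1, a mitochondrial flavoprotein gene, measured 19.6 ± 1.05 CPM in Srp72+/- (SD, n = 3) and 14.7 ± 2.76 CPM in WT (SD, n = 4).

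Of 21 regulators of the members, 20 were tested and 0 passed, with 8 positive and 12 negative fitted values and a median of -0.05. Trp53, which encodes p53, an activator of Bbc3, Pmaip1 and Bax, measured 106, 142 and 259 CPM in Srp72+/- 1 to 3, against 123, 108, 144 and 123 CPM in WT 1 to 4. The highest Trp53 value was that of Srp72+/- 3 and the lowest that of Srp72+/- 1. Any relation of Trp53 to the levels of Pmaip1, Bbc3 and Bax was not tested. Foxo3, a known activator of Bcl2l11 in stem cells under cytokine loss, measured 165 ± 29.6 CPM in Srp72+/- (SD, n = 3) and 158 ± 19.9 CPM in WT (SD, n = 4). Stat5b, a transducer of thrombopoietin signals, measured 44.1 ± 8.75 CPM in Srp72+/- and 59.7 ± 9.26 CPM in WT, with 1 Srp72+/- library above 2 of the WT libraries and a log2 fold change of -0.44 (edgeR unadjusted p = 0.0987). Kitl, the stem cell factor gene, was between 0.0606 and 0.582 CPM in Srp72+/- and between 0.128 and 3.06 CPM in WT.

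For the death receptor route into Bid, 9 of 10 genes were tested, Bid included, and 0 passed, with 4 positive and 5 negative fitted values and a median of -0.11. Tnfrsf1a, a TNF receptor gene, was at 43.2, 45.7 and 43.8 CPM in Srp72+/- 1 to 3, against 45.6, 65.3, 86.9 and 54.6 CPM in WT 1 to 4, and overlapped only through WT 1 and Srp72+/- 2 (log2 fold change -0.51, edgeR unadjusted p = 0.0843). The adaptor genes Fadd and Tradd measured 17.9 ± 5.01 and 7.31 ± 2.65 CPM in Srp72+/- (SD, n = 3), and 13.2 ± 2.42 and 5.50 ± 1.76 CPM in WT (SD, n = 4).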

How the data were processed

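Per the labels' protocols, RNA of sorted marrow cells was amplified with the Ovation RNA-seq system V2 (NuGen) and made into libraries with a TruSeq V2 kit (Illumina). Per the submitters' processing notes, the authors used Salmon 0.12.0 and the builds mm10 and GRCm38.p6. The sources used here give no transcript release, strand setting or options. Per the file headers, the deposited values are TPM and estimated counts per transcript, with effective lengths. The labels name no molecular identifiers, and the limits given for a count of 0 cover counting error only, while the confidence intervals of fold changes include the spread between libraries.

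Of 136288 transcripts, 136176 matched GENCODE M21 (GRCm38), and 99.1% of these had the same length there; of 45 member transcripts 3 differed in length (1 each of Bak1, Pmaip1 and Bad). Unmatched transcripts held 0.0413% to 0.0622% of the reads. Reads were summed per gene and rounded, filtered with filterByExpr (minimum count 10, total 15), scaled by TMM and tested in R 4.3.3 with edgeR 4.0.16 (quasi-likelihood, robust, no covariate, Benjamini-Hochberg over 20314 genes). Alternatives used DESeq2 1.42.0, which fitted 40992 genes without the filterByExpr step, and limma 3.58.1. The fit was tested on simulated data. Near copies of member transcripts were sought with BLAST 2.17.0 (at least 90% identity over 200 bases). Overlapping genes were found from the gene and exon positions of GENCODE M21. Transcript shares were compared by exact permutation.

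The members and lists were chosen with earlier results of these data known. All 10 members were named, with transcript models of at least 10% of the TPM, the 3 genes of each list with the smallest p, and a few fixed survival genes and regulators.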

Additional observations from a re-analysis of the deposited data

Results flagged for a closer look

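In WT, with 4 libraries, 12 quantities were examined for a library far from the others by Dixon's ratio at the 95% level, which flags about 1 in 20 groups by chance, and 3 stood out, all through WT 2. Bak1 measured 98.5 CPM in WT 2, while WT 1, WT 3 and WT 4 lay between 39.5 and 49.3 CPM. Pmaip1 reached 6.71 CPM in WT 2, and the other WT libraries lay between 0.27 and 1.18 CPM. For Bid the value of WT 2 was 34.98 CPM, beside 14.4 to 17.7 CPM in the rest of WT. WT 2 was also the library with 146 CPM of HSC markers and 38801 CPM of neutrophil markers, and the part of these in the 3 values was not tested.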

How the results depend on the processing

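No member was called under any of the 16 alternatives, though Pmaip1 had no p-value in DESeq2 and could not be called there. The count of called genes was 10 with DESeq2 (6 higher and 4 lower in Srp72+/-), between 0 and 1 with 1 library left out (1 without WT 4), and 0 in all other fits, where 139 to 1133 genes had an unadjusted p below 0.05. The median of all genes moved to 0.132 without a filter and 0.104 in DESeq2. With the offset for transcript length the log2 fold changes that changed sign were -0.15 for Bcl2l1, 0.14 for Bcl2l11, -0.05 for Bax and -0.45 for Bbc3. With voom and sample quality weights they were 0.0033 for Mcl1, -0.02 for Bcl2, -0.08 for Bcl2l1 and -0.04 for Bax. With WT 2 and Srp72+/- 1 both left out they were 0.29 for Bak1, -0.05 for Bbc3 and 0.16 for Bad. With each library left out in turn the ranges were -0.05 to 0.53 for Bcl2, -0.17 to 0.27 for Bcl2l1, -0.26 to 0.19 for Bax, -0.88 to 0.10 for Bak1, -0.09 to 0.24 for Bbc3, -1.07 to 2.15 for Pmaip1, -0.59 to 0.17 for Bid and -0.46 to 0.14 for Bad. The cause was not tested. The difference in the TPM share of BimEL was 1.67 percentage points among protein-coding models, and between -32.8 and -14.2 with 1 library left out.

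Deviations of same-numbered libraries from their group means correlated at -0.316, -0.162 and 0.002 across genes. The highest value of any pair was 0.395, for Srp72+/- 1 and WT 2, which both held many mature cell marker reads. Because the libraries differ in such markers, these correlations cannot tell whether same-numbered mice were handled together. With the replicate number as a block 0 genes were called, and the value of Bax was -0.01. The survival ratio in TPM differed by -0.13 between the genotypes and by -0.49 to 0.35 with 1 library left out, where leaving out Srp72+/- 3 gave 0.35, against a pooled SD of 0.58. The scales of CPM per kilobase (of the principal or the most read model, and without Mcl1) and of complete models, and leaving out both libraries for shares and the ratio, were chosen after seeing the data. With a biological coefficient of variation of 0.628, and 6 to 185.5 reads per library for Pmaip1 and 16 to 38 for Bbc3, modest differences in these genes were not detectable.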
